A study of Rattus norvegicus with 16 samples.

Results

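Mybl2, Foxm1, E2f1, E2f2, E2f7, E2f8, Ccne1, Ccne2, Ccnd1 and Myc encode transcription factors and cyclins that drive cells into and through the division cycle. They were chosen by gene name from the deposited table of liver and bone marrow, with their response in liver already known. Of the 10 named genes, 9 had a row among the 32623 genes of the table, and E2f1 was not analysed here. The animals were female Big Blue rats, which carry a vector with the reporter genes cII and lacI in every group. The NDEA groups received 10 mg/kg/day of N-nitrosodiethylamine by gavage for 28 days, and the control groups received 0 mg/kg/day. NDEA is a liver carcinogen that cytochrome P450 enzymes turn into a DNA-alkylating agent. Rats arrived at 6 weeks of age, dosing began after 1 week of acclimation, and tissues were collected 3 days after dosing ended. Liver NDEA, liver control, marrow NDEA and marrow control had 4 libraries each, 16 in all. The labels give 6 treated rats per dose, without saying which rat or cage a library came from.

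In a resting cell, pocket proteins of the retinoblastoma family hold E2F factors inactive. Mitogens raise MYC and cyclin D1, cyclin D and then cyclin E with their kinases release E2F, and E2F switches on the genes of DNA replication, among them those of cyclin E and MYBL2. MYBL2 joins the MuvB core complex in S phase, and FOXM1 follows it, to switch on the genes of mitosis. Most hepatocytes of an adult liver are quiescent and re-enter the cycle after injury, whereas marrow renews its blood cells throughout life.

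Libraries were sequenced from the 3' end of transcripts, so a count does not scale with gene length. Levels are in CPM, counts brought to a common library total with scaling inside each tissue, so a level in liver and one in marrow are set side by side but were scaled apart. Liver libraries held 5000844 to 6863592 counts and marrow libraries 2162182 to 5705705. Albumin's gene Alb, which marks hepatocytes, reached at least 63650 CPM per liver library and at most 0.483 CPM per marrow library. Mpo, which myeloid cells store in granules, ranged from 414 to 622 CPM in marrow with 0 counts in liver.

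Promoter windows were at hand for 3 of the 10 genes, Mybl2, Ccne1 and E2f7, in RefSeq's table for the assembly GRCr8. Each window runs from 250 bases before to 50 bases after the gene's start. The windows of Mybl2 and Ccne1 are printed, and of the 3 windows only these hold the E2F letters that were searched for. Capitals mark the letters GGCGGGA or GGCGCGA, the core of an E2F motif, on either strand.
Mybl2, chr3:172124555-172124854, plus strand: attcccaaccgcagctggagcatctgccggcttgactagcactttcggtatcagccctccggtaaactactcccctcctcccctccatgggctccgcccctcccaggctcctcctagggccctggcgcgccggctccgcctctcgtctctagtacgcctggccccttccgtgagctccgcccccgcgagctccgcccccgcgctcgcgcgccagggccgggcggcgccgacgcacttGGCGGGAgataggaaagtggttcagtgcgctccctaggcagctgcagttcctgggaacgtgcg
Ccne1, chr1:99927860-99928159, minus strand: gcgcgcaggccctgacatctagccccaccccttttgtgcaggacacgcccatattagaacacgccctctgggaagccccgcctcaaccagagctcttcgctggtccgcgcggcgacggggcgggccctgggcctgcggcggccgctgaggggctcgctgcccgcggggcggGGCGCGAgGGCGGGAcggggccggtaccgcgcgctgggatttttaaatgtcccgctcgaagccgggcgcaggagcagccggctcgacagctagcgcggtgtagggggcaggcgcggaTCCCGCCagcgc
Positions are those of the first base of a match, read along the printed strand. The Mybl2 window holds GGCGGGA at 13 bases before the start. The Ccne1 window holds GGCGCGA at 79 bases and GGCGGGA at 71 bases before the start, and GGCGGGA on the opposite strand at 39 bases after it. The E2f7 window held neither form, and it held the letters CCAAT on the opposite strand at 73 and 41 bases before the start. Only these exact letters were searched, so other forms of an E2F motif were not looked for in any window. Of all 33469 promoter windows in the table, 12.9% hold GGCGGGA or GGCGCGA, and 37.5% hold CCAAT. The forms TTTGAA and TTCGAA of the cell-cycle homology region (CHR), which MuvB binds, and the E-box CACGTG, which MYC binds, were in none of the 3 windows. Of all windows, 19.7% hold a CHR form and 6.42% the E-box. GC content was 69.3% in the Mybl2 window, 73.3% in that of Ccne1 and 71.7% in that of E2f7.

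In liver, Mybl2 (ENSRNOG00000007805; chromosome 3, position 159421671 of the deposited table, whose build is not named) was detected in each NDEA library and in no control library. It had 85, 73, 72 and 67 counts in NDEA livers 1 to 4, against 0 counts in each of the 4 control livers. On the CPM scale NDEA livers held 13.0, 13.9, 10.1 and 10.0, a mean of 11.8 ± 1.96 CPM (SD, n = 4). A count of 0 allows up to 3 counts, which is 0.468 to 0.553 CPM in a single control liver and 0.130 CPM over the 4 together. With the libraries of each group pooled, Mybl2 was at least 89.3-fold higher in NDEA livers than that floor over the group. The fitted log2 fold change of 7.06 (SE 1.35) depends on the prior count and is no bound. These levels are a description, since Mybl2 was chosen with its response in liver known, and it passed the filter on low values through the NDEA livers alone.

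Foxm1 (ENSRNOG00000005936; chromosome 4, position 161685258), which follows MYBL2 at mitotic genes, showed no such split. NDEA livers held 30, 5, 5 and 0 counts, against 2, 16, 4 and 0 counts in control livers. The means were 1.56 ± 2.06 CPM in NDEA livers and 0.959 ± 1.26 CPM in control livers (SD, n = 4 each), and the groups overlapped. Foxm1 was too low in liver to pass the filter on low values.

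Among the E2F genes, E2f8 (ENSRNOG00000022537; chromosome 1, position 104187100), an atypical E2F that represses E2F targets later in S phase, had 4, 2, 5 and 12 counts in NDEA livers, against 0 counts in each control liver. Its mean was 0.873 ± 0.632 CPM in NDEA livers (SD, n = 4). With the libraries of each group pooled, it was at least 6.92-fold higher in NDEA livers than the floor of 3 counts over the control group. E2f7 (ENSRNOG00000026252; chromosome 7, position 53275676), the other atypical E2F, had 11 counts in NDEA liver 3 and 0 counts in the other 3 NDEA livers and in all 4 control livers. E2f2 (ENSRNOG00000047741; chromosome 5, position 154522119), an activating E2F, had 1, 31, 48 and 12 counts in NDEA livers, against 38, 8, 11 and 24 counts in control livers. Its means were 3.65 ± 3.18 CPM in NDEA livers and 3.44 ± 2.12 CPM in control livers (SD, n = 4 each). The ratio of these means was 1.06 while the fitted log2 fold change was -0.63 (SE 1.03), so the sign of the difference depended on the summary.

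Of the cyclin genes, Ccnd1 (ENSRNOG00000020918; chromosome 1, position 218090750), the gene of cyclin D1, was well expressed in both groups. NDEA livers held 214, 317, 378 and 341 CPM, against 178, 135, 136 and 70.1 CPM in control livers. The means were 312 ± 70.3 CPM in NDEA livers and 130 ± 44.7 CPM in control livers (SD, n = 4 each), and the lowest NDEA liver lay above the highest control liver. The log2 fold change was 1.30 (SE 0.21), a 2.46-fold higher level. Of the members, Ccnd1 had the smallest standard error in liver and the highest counts, 1400 to 2688 in NDEA livers and 380 to 1143 in control livers.

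Ccne2 (ENSRNOG00000008055; chromosome 5, position 24434872), a gene of cyclin E, had 59, 30, 89 and 98 counts in NDEA livers, against 0, 22, 13 and 0 counts in control livers. The groups did not overlap, with means of 10.5 ± 3.95 CPM in NDEA livers and 1.55 ± 1.89 CPM in control livers (SD, n = 4 each). The ratio of these means was 6.77, while the fitted log2 fold change of 4.38 (SE 1.48) is pulled by the control livers at 0. Ccne1 (ENSRNOG00000014786; chromosome 1, position 94485832), the other cyclin E gene, had 39, 1, 21 and 41 counts in NDEA livers, against 1, 4, 0 and 0 counts in control livers. NDEA liver 2, with 1 count, lay within the control range, so the groups overlapped, although the ratio of means was 17.8. Ccne1 did not pass the filter in liver.

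Myc (ENSRNOG00000004500; chromosome 7, position 102586313), the growth-promoting transcription factor, held 8.86, 12.0, 16.3 and 3.60 CPM in NDEA livers, against 2.19, 4.55, 3.07 and 2.21 CPM in control livers. The means were 10.2 ± 5.35 CPM in NDEA livers and 3.00 ± 1.11 CPM in control livers (SD, n = 4 each), a ratio of 3.39. NDEA liver 4 lay below the highest control liver, so the groups overlapped.

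In all, 5 of the 9 members passed the filter in liver, and 2 of them, Mybl2 and Ccnd1, had an adjusted p under 0.05, where 6.61% of the 9668 tested genes did, 2.87% as higher and 3.74% as lower. The groups did not overlap, with NDEA higher, for Mybl2, Ccnd1, Ccne2 and the untested E2f8, and 6.54% of the tested genes did so in that direction. Nothing is read from these counts, because the liver response chose the members. The NDEA livers did not rank alike across the members. NDEA liver 2 had the highest Mybl2 and the lowest Ccne2 and Ccne1, NDEA liver 3 the highest Ccnd1 and Myc, and NDEA liver 4 the lowest Myc and the highest Ccne2.

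**Figure D1:**
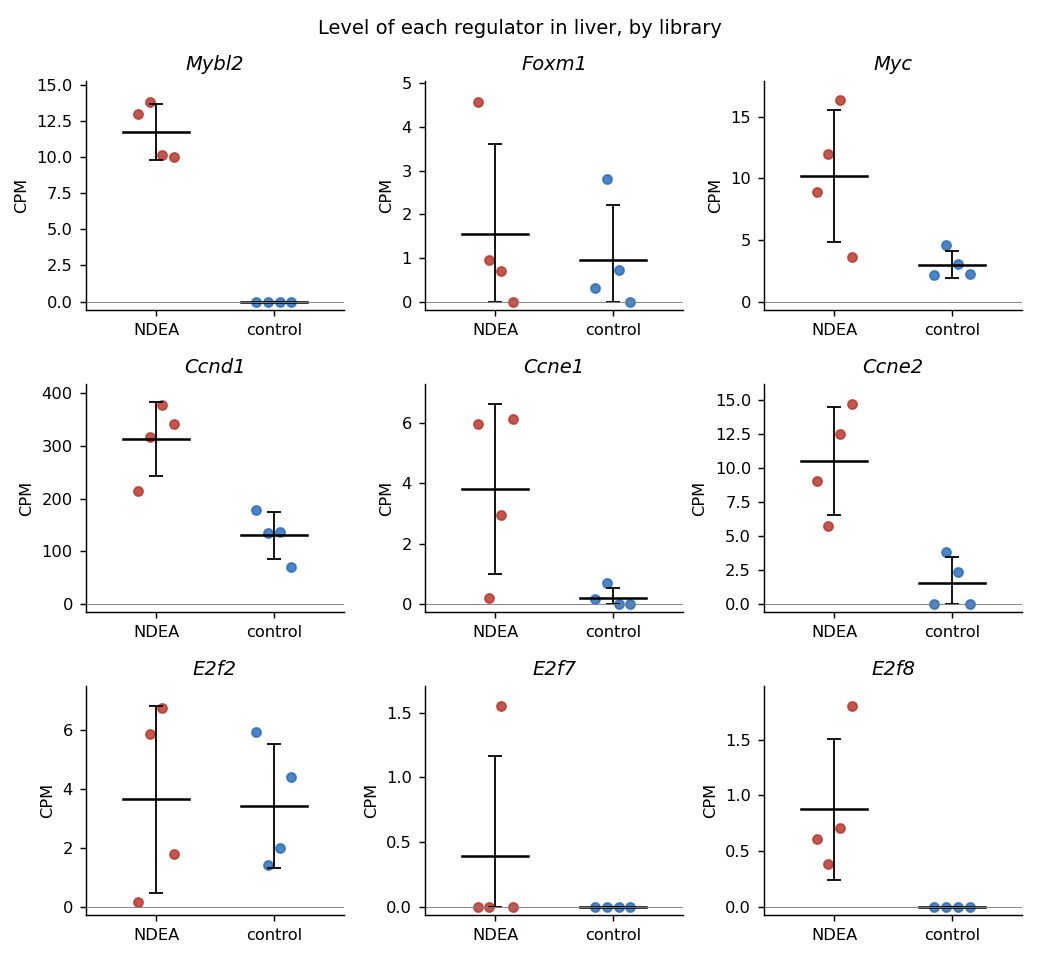
Levels in liver of the 9 regulators with a row, in CPM, with a panel and a scale for each gene; points are libraries, the long bar is the mean and the whiskers are 1 SD (stopped at 0), with NDEA left of control. Mybl2 stands at 10.0 to 13.9 CPM in NDEA livers and at 0 in control livers, and Ccnd1 at 214 to 378 CPM against 70.1 to 178 CPM, while the groups of Foxm1 and E2f2 overlap.

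The genes around these regulators in liver were followed in lists. The lists were chosen with earlier results of these data known, so their counts and p-values in liver are a description. Of all tested genes 2.87% rose and 3.74% fell. Of 7 tested genes among the other E2F factors, their DP partners and the pocket proteins, 0 rose and 0 fell by limma-voom at an adjusted p under 0.05 (1 had an unadjusted p under 0.05; median log2 fold change 0.20, against 0.01 over all tested genes). E2f3, an activating E2F, averaged 13.1 ± 3.06 CPM in NDEA livers and 14.3 ± 11.7 CPM in control livers (SD, n = 4 each). E2f4, a repressive E2F, averaged 9.79 ± 2.50 CPM in NDEA livers and 9.29 ± 2.80 CPM in control livers. Among pocket proteins, Rbl2 averaged 16.6 ± 4.21 CPM in NDEA livers and 18.8 ± 4.06 CPM in control livers, and Rbl1 averaged 2.58 ± 2.24 CPM in NDEA livers and 1.62 ± 1.16 CPM in control livers. Rb1, the retinoblastoma gene, was below the filter, at 0.412 ± 0.824 CPM in NDEA livers and 0.133 ± 0.168 CPM in control livers.

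Of 10 tested genes among the other G1 cyclins and kinases, 0 rose and 0 fell (0 at an unadjusted p under 0.05), with a median log2 fold change of -0.28. Ccnd3, the gene of cyclin D3, averaged 26.8 ± 4.60 CPM in NDEA livers and 36.8 ± 6.16 CPM in control livers (SD over 4 libraries each; log2 fold change -0.45, SE 0.23, limma adjusted p = 0.32). Its groups did not overlap, with NDEA lower, as for 5.98% of the tested genes. Ccnd2 averaged 3.15 ± 2.41 CPM in NDEA livers and 3.40 ± 2.30 CPM in control livers, and Cdk4, the kinase partner of D cyclins, 2.75 ± 0.629 CPM in NDEA livers and 3.56 ± 1.72 CPM in control livers.

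Of 5 tested inhibitors of cyclin-dependent kinases, 1 rose and 0 fell (3 at an unadjusted p under 0.05; median log2 fold change 1.08). Cdkn1a, the p21 inhibitor that p53 induces, averaged 327 ± 47.9 CPM in NDEA livers and 23.5 ± 16.7 CPM in control livers (SD over 4 libraries each; log2 fold change 4.02, SE 0.30, limma adjusted p = 2.58e-09). It was higher in 4 of 4 NDEA livers than in any control liver. Cdkn1b, the p27 inhibitor, averaged 19.5 ± 4.86 CPM in NDEA livers and 16.3 ± 8.82 CPM in control livers.

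Of 24 tested G1/S targets of E2F, 3 rose and 0 fell, 23 had a higher estimate and 12 an unadjusted p under 0.05; the median log2 fold change was 1.18, against 0.01 over all tested genes, of which 2.87% rose. Lig1, the replicative DNA ligase, averaged 80.1 ± 7.43 CPM in NDEA livers and 23.3 ± 8.61 CPM in control livers (SD over 4 libraries each; log2 fold change 1.87, SE 0.25, limma adjusted p = 1.98e-05). Tk1, the thymidine kinase of S phase, rose 3.86-fold, and Rrm1, a subunit of ribonucleotide reductase, rose 2.02-fold. Without single libraries, 2 to 4 of these targets rose, and 2 did without control liver 2, 3 or 4 or without NDEA liver 2 or 4. In 14 of the 24 every control liver reached the filter level of 1.64 CPM, and all 3 that rose were among them.

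Of 23 tested G2/M targets of MuvB, MYBL2 and FOXM1, 15 rose and 0 fell, where 2.87% of all tested genes rose. All 23 had a higher estimate (19 at an unadjusted p under 0.05), with a median log2 fold change of 3.57. Mki67, the Ki-67 protein of cycling cells, averaged 36.5 ± 9.07 CPM in NDEA livers and 4.04 ± 0.946 CPM in control livers (SD over 4 libraries each; log2 fold change 3.16, SE 0.53, limma adjusted p = 3.56e-04). Top2a, the topoisomerase that untangles chromosomes, averaged 72.1 ± 23.2 CPM in NDEA livers and 7.46 ± 7.68 CPM in control livers (limma adjusted p = 0.00127). Cenpf, a kinetochore protein, averaged 40.6 ± 14.6 CPM in NDEA livers and 3.94 ± 6.15 CPM in control livers (limma adjusted p = 0.0312), and Ccnb1, the gene of cyclin B1, 19.1 ± 7.29 CPM in NDEA livers and 1.84 ± 1.86 CPM in control livers (limma adjusted p = 0.0441). In 21 of the 23, fewer than all 4 control livers reached the filter level, so these passed the filter with the help of NDEA livers; the other 2 both rose. The number that rose was 6 without control liver 1, 8 without control liver 2 and 8 without control liver 3. Mitochondrial transcripts took 20.1% to 22.4% of counts in NDEA livers and 16.2% to 20.6% in control livers, and with this mitochondrial share as a covariate 0 of the 23 were called while 21 still had a higher estimate (median log2 fold change 2.53).

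Summed over the list, G2/M targets stood at 395 to 694 CPM in NDEA livers and 24.3 to 127 CPM in control livers. G1/S targets stood at 469 to 582 CPM in NDEA livers and 261 to 347 CPM in control livers. Neither pair of ranges overlapped. NDEA liver 2 held both the highest G2/M sum and the highest Mybl2, and NDEA liver 1 the lowest G2/M sum and the second-highest Mybl2.

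**Figure D2:**
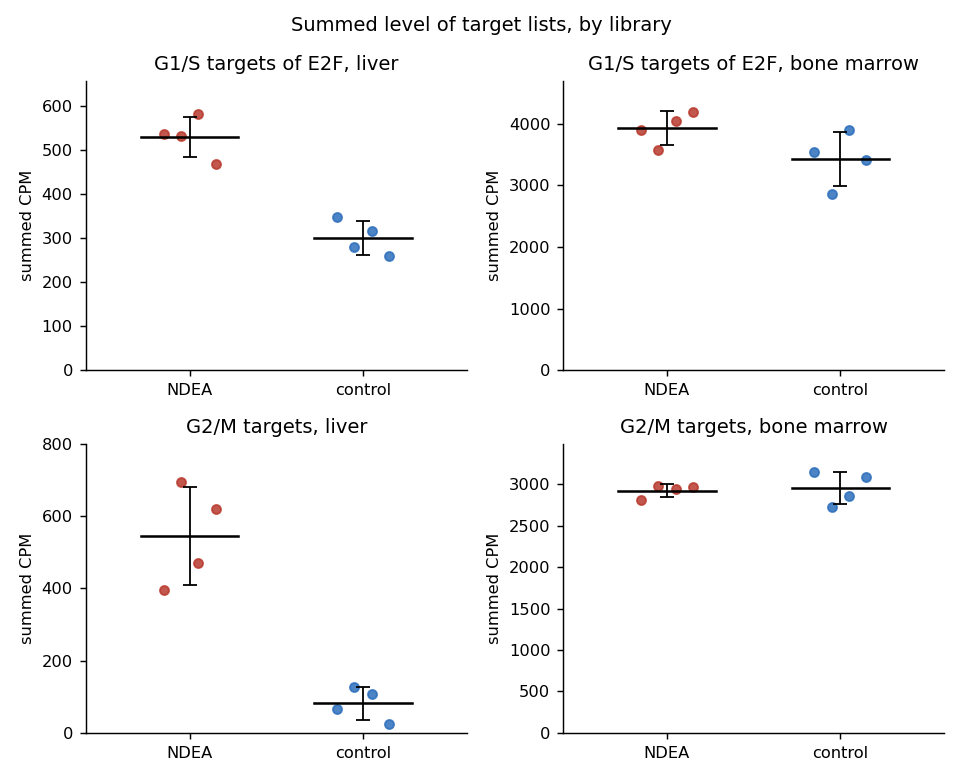
Summed CPM of the G1/S and G2/M target lists in each library of liver (left panels) and bone marrow (right panels); points are libraries, with the mean and 1 SD, NDEA left of control and axes starting at 0. The G2/M sum is 395 to 694 CPM in NDEA livers against 24.3 to 127 CPM in control livers, and 2808 to 2975 CPM in NDEA marrows against 2728 to 3145 CPM in control marrows.

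Of 22 tested MYC targets, 2 rose and 0 fell (5 at an unadjusted p under 0.05; median log2 fold change 0.27). Hspd1, a mitochondrial chaperone, averaged 435 ± 17.4 CPM in NDEA livers and 295 ± 47.4 CPM in control livers (SD, n = 4 each; limma adjusted p = 0.00278). Nme1, a nucleoside diphosphate kinase, rose 1.64-fold (limma adjusted p = 0.0378). With the mitochondrial share as a covariate 0 MYC targets were called, and 1 was without control liver 2, 3 or 4 and without NDEA liver 1, 2 or 3. Of 9 tested genes of the MAX network, which holds the partners and antagonists of MYC, 0 rose and 0 fell (1 at an unadjusted p under 0.05; median log2 fold change 0.22). Of 9 tested parts of ubiquitin ligases that degrade cyclins, E2F and MYC, 0 rose and 0 fell (2 at an unadjusted p under 0.05; median 0.14), and the same held for 8 tested growth signals upstream of Ccnd1 and Myc (1 at an unadjusted p under 0.05; median 0.41).

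Of 4 tested genes among the MuvB core and other MYB factors, 0 rose and 0 fell (1 at an unadjusted p under 0.05; median log2 fold change 0.38). Mybl1, the A-MYB relative of MYBL2, was named after its values were seen. It had 274, 234, 93 and 432 counts in NDEA livers, against 44, 27, 0 and 13 counts in control livers, with means of 41.0 ± 21.3 CPM in NDEA livers and 3.50 ± 2.96 CPM in control livers (SD, n = 4 each). Its groups did not overlap, and its limma adjusted p was 0.0611 (log2 fold change 4.30, SE 1.37).

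**Figure D3:**
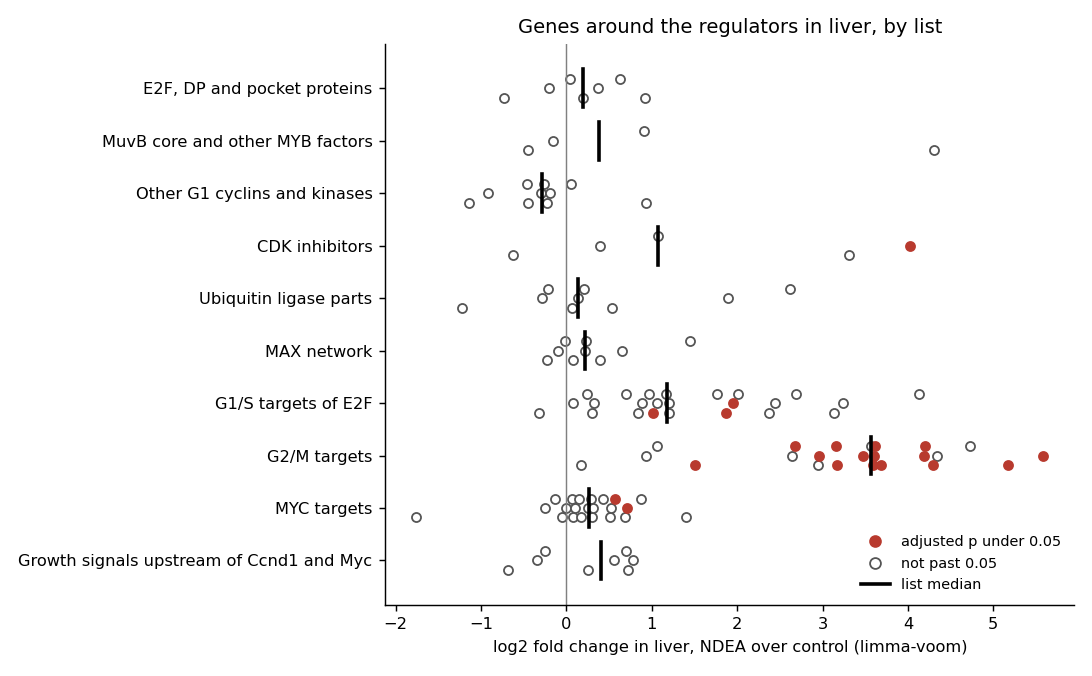
Log2 fold change in liver, NDEA over control, of each tested gene in the 10 lists around the regulators; filled points passed an adjusted p under 0.05, open points did not, and the black bar is the list's median. The G2/M targets lie furthest right, with 15 of 23 filled and a median of 3.57, and the other G1 cyclins and kinases have a median of -0.28 and none filled.

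Markers of other cells moved in liver beside these genes. Fewer cells of a type and less RNA per cell cannot be told apart in bulk tissue. Markers of stellate cells and fibroblasts summed to 418 to 497 CPM in NDEA livers and 231 to 338 CPM in control livers. Of 7 tested 2 rose, Col3a1 and Dcn. Col1a2 was at 0 in both groups. It was at 0 in marrow too, where Col1a1 had 40866 counts in NDEA and 60568 in control, so nothing is read from its 0. Cholangiocyte and progenitor markers summed to 24.3 to 40.5 CPM in NDEA livers and 6.64 to 16.8 CPM in control livers, with 0 of 2 tested called and Krt19 at 0 in both groups. Markers of T and NK cells summed to 15.3 to 21.9 CPM in NDEA livers and 5.25 to 14.8 CPM in control livers, with 0 of 3 tested called. Cd3e and Cd3d were at 0 in control livers, and Cd2 was higher in each NDEA liver than in any control liver. The groups of the other T and NK markers overlapped. In NDEA livers Nkg7, Gzmb and Klrd1 had higher means, and Cd3g, Lck and Cd8a had lower means. For Klrd1 the fitted log2 fold change was -1.24 (SE 1.38), so the sign of its difference depended on the summary. Sums of Kupffer cell markers overlapped, at 696 to 810 CPM in NDEA livers and 650 to 796 CPM in control livers, as did those of erythroid and blood progenitor markers. Of 10 tested Kupffer cell markers 1 rose, Marco, and 1 fell, Vsig4. Hepatocyte markers summed to 92236 to 110444 CPM in NDEA livers and 96584 to 121347 CPM in control livers, and of 8 tested 3 rose and 4 fell. B and plasma cell markers summed to 0 to 8.02 CPM in NDEA livers and 0 to 0.369 CPM in control livers, and Cd79a, Jchain and Pax5 were at 0 in both groups. Cd79a and Pax5 had 0 counts in marrow too, where Cd79b had 1544 counts in NDEA and 1490 in control. Their 0 in liver therefore does not tell whether B cells were there. The part of these cells in the levels of the regulators was not tested.

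In bone marrow, none of the 8 tested members changed by limma-voom, where 0 of 9239 tested genes, 0%, were called in either direction and 14.5% had an unadjusted p under 0.05; the smallest adjusted p of any gene was 0.247. Mybl2 held 57.0, 55.2, 53.4 and 53.0 CPM in NDEA marrows, against 50.3, 51.3, 73.7 and 51.7 CPM in control marrows. Its means were 54.6 ± 1.84 CPM in NDEA marrows and 56.7 ± 11.3 CPM in control marrows (SD over 4 libraries each; log2 fold change -0.04, SE 0.24, limma adjusted p = 0.951). The 95% interval of that log2 fold change ran from -0.55 to 0.47. Foxm1 held 41.5, 24.7, 29.7 and 45.5 CPM in NDEA marrows, against 15.5, 16.6, 26.8 and 25.0 CPM in control marrows. NDEA marrow 2 lay below the highest control, and the log2 fold change of 0.70 (SE 0.34) did not pass the test (limma adjusted p = 0.347).

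Ccne1 was the member with the smallest unadjusted p in marrow, 0.0425 by limma. It held 46.8, 37.6, 32.4 and 42.3 CPM in NDEA marrows, against 109, 54.1, 37.2 and 80.6 CPM in control marrows, and the groups overlapped (log2 fold change -0.68, SE 0.31, limma adjusted p = 0.329). The groups of each of the 9 members overlapped in marrow, where 2.57% of tested genes had NDEA wholly above control and 3.03% wholly below. Ccne2 averaged 49.2 ± 24.8 CPM in NDEA marrows and 55.8 ± 13.3 CPM in control marrows (SD, n = 4 each; limma adjusted p = 0.669), with NDEA marrow 4 at 12.3 CPM and the other 3 at 57.2 to 64.2 CPM. Ccnd1 was low in marrow, at 4.75 to 20.4 CPM in NDEA marrows and 4.19 to 23.2 CPM in control marrows (limma adjusted p = 0.883). Myc averaged 9.64 ± 7.44 CPM in NDEA marrows and 12.3 ± 4.90 CPM in control marrows (limma adjusted p = 0.622).

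E2f2 stood far above the other E2F members in marrow, with 2465 to 3690 counts in NDEA marrows and 1764 to 3766 in control marrows. It averaged 627 ± 41.7 CPM in NDEA marrows and 656 ± 72.4 CPM in control marrows (SD over 4 libraries each; log2 fold change -0.06, SE 0.20, limma adjusted p = 0.906), with a 95% interval from -0.48 to 0.36. In mice E2f2 takes part in the maturation of erythroid cells. Erythroid markers summed to 118645 to 158137 CPM in NDEA marrows and 130787 to 197846 CPM in control marrows. E2f8 had 18, 36, 35 and 0 counts in NDEA marrows, against 49, 13, 11 and 12 counts in control marrows (limma adjusted p = 0.837), and E2f7 had 0, 13, 0 and 0 counts in NDEA marrows, against 5, 9, 1 and 9 counts in control marrows.

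In the same marrow fit with all its libraries, no gene of any list was called. With all 16 libraries in one fit, 8 cell markers were called as lower in marrow, where 57 of all 11261 tested genes were. Of the lists around the regulators, 0 genes were called there. With no filter 1 cell marker was called as lower, and 1 was with the mitochondrial share as a covariate. G2/M targets had a median log2 fold change of -0.14 over 27 tested (4 at an unadjusted p under 0.05) and G1/S targets -0.04 over 29 (5 at an unadjusted p under 0.05), against -0.10 over all tested genes. The MuvB core and other MYB factors summed to 22.9 to 29.2 CPM in NDEA marrows and 36.1 to 50.3 CPM in control marrows, with 0 of 5 tested called (0 at an unadjusted p under 0.05). Mybl1 was part of that sum, with 0 counts in each NDEA marrow, against 7, 6, 12 and 19 counts in control marrows. Skeletal muscle markers summed to 57.0 to 71.8 CPM in NDEA marrows and 137 to 517 CPM in control marrows, with all 8 detected in both groups. Of 7 tested, 0 were called, 6 had an unadjusted p under 0.05 by limma and 0 a higher estimate (median log2 fold change -2.95). Megakaryocyte markers summed to 164 to 298 CPM in NDEA marrows and 352 to 675 CPM in control marrows, with Gp1bb at 0 in NDEA marrows. Of 5 tested, 0 were called, 3 had an unadjusted p under 0.05 by limma and 0 a higher estimate (median -0.86). Of all tested genes, 14.5% had such a p. The part of these cells in the marrow values was not tested. Without control marrow 3, the highest for Mybl2, 318 of 9675 tested genes were called in marrow, 111 as higher and 207 as lower. Of the members 0 were called, and the log2 fold change of Mybl2 was 0.08. Of the lists around the regulators, 1 gene was then called as higher, the G1/S target Cdt1, and 7 as lower, Ccnd3, the MYC targets Hspe1 and Npm1, Mxd1 of the MAX network, and the ligase parts Fbxw7, Rbx1 and Skp1; these were named after their values were seen. Of the cell markers, 1 was then called as higher and 9 as lower.

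**Figure D4:**
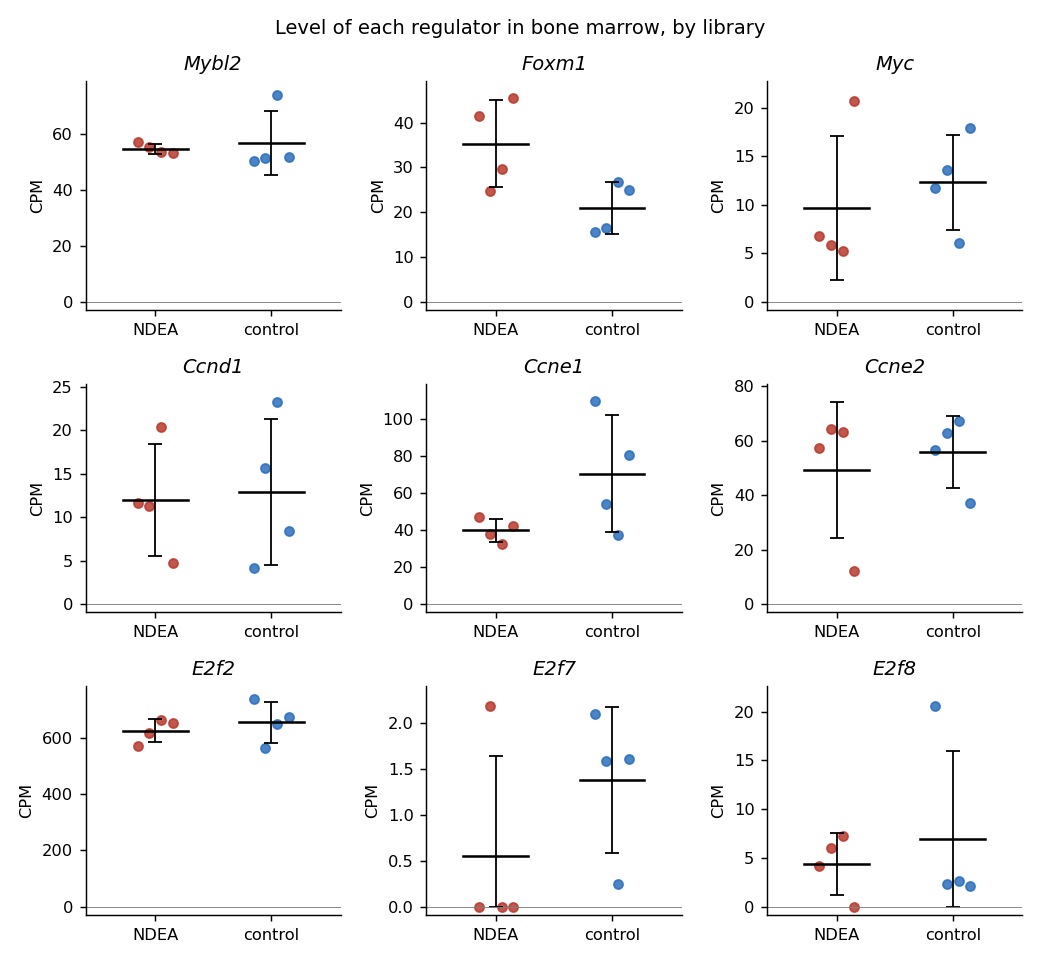
Levels in bone marrow of the 9 regulators with a row, in CPM, drawn as for liver with NDEA left of control; points are libraries, the long bar is the mean and the whiskers are 1 SD (stopped at 0). The groups overlap in each panel, with Mybl2 at 53.0 to 57.0 CPM in NDEA marrows and 50.3 to 73.7 CPM in control marrows and E2f2 at 571 to 664 CPM against 564 to 739 CPM.

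The order of levels over the 4 groups separated the members into kinds. Mybl2 was highest in marrow, where its groups overlapped, then in NDEA liver and last in control liver, and neither step down overlapped. E2f2, Foxm1 and Ccne1 were high in both marrow groups and low in both liver groups, with no overlap between tissues and overlap within each. Ccne2 overlapped between NDEA liver and marrow through NDEA marrow 4, and control liver lay below all. Ccnd1 ran the other way, highest in NDEA liver, then in control liver and lowest in marrow, where its groups overlapped. Myc averaged 10.2 CPM in NDEA liver and 3.00 CPM in control liver, and 9.64 CPM in NDEA marrow and 12.3 CPM in control marrow; the 3 higher groups overlapped, and each control liver lay below every marrow library. E2f7 and E2f8 were low throughout, and for E2f8 the NDEA livers lay above the control livers and below the control marrows, and overlapped with the NDEA marrows through NDEA marrow 4 at 0.

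How far the response of liver exceeded that of marrow, liver minus marrow, was fitted over all 16 libraries. For the members it is a description: the liver response that chose them is part of it. The log2 difference was 7.14 (SE 0.74) for Mybl2, 4.80 (SE 1.43) for Ccne2, 4.40 (SE 1.29) for Ccne1, 4.12 (SE 1.70) for E2f8, 2.21 (SE 0.90) for Myc and 1.54 (SE 0.73) for Ccnd1. It was -0.22 (SE 1.28) for Foxm1 and -0.50 (SE 0.92) for E2f2, with a median of 0.32 over all tested genes. Control livers held 0 counts of Mybl2 and E2f8 and 5 counts of Ccne1, so the size of their differences depends on the prior count. Ccne1, E2f8 and Foxm1 did not pass the filter in liver and entered this fit through marrow. Of the 8 members fitted, Mybl2 alone had an adjusted p under 0.05, where 2.28% of 11261 genes did (2.07% with the higher effect in liver), and it had the smallest p of all of them.

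For the lists and the genes named from them it is a description too, because they were chosen with the liver response known. Of 27 tested G2/M targets 16 had an adjusted p under 0.05 and of 29 G1/S targets 5, each with a higher effect in liver. The log2 difference was 3.49 (SE 0.53) for Mki67, 4.72 for Top2a, 5.42 for Cenpf, 4.67 for Ccnb1, 1.99 for Tk1 and 1.63 for Lig1. It was 4.04 for Cdkn1a; in marrow it held 1.87 to 23.8 CPM in NDEA and 2.68 to 31.4 CPM in control. The G2/M count was 9 without control liver 4, and the G1/S count was 2 without control liver 4 and 3 without control liver 1.

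**Figure D5:**
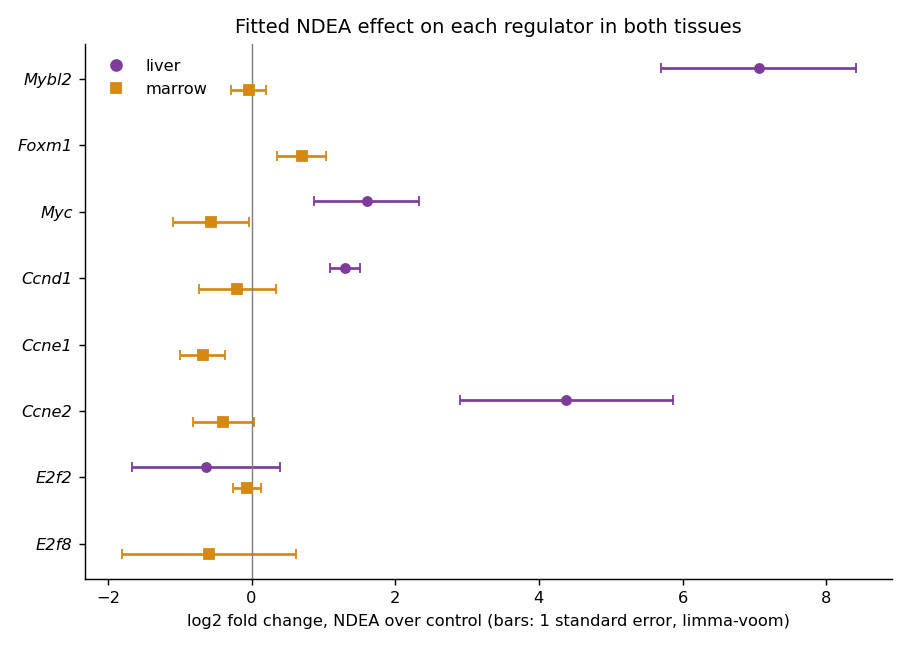
Fitted log2 fold change, NDEA over control, of each tested regulator in liver (circles) and bone marrow (squares), with bars of 1 standard error; genes that did not pass the filter in liver have no circle. Mybl2 lies at 7.06 in liver and -0.04 in marrow, and Ccnd1 at 1.30 in liver and -0.20 in marrow.

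Genes whose levels followed a member were found by Pearson's correlation of log2 CPM over the 16 libraries and 11261 genes. The libraries fall into 2 tissues, so these values mostly carry the tissue difference and are given as a description. Mybl2 was most like Fancb, a Fanconi anaemia gene (r = 0.993), Mki67 (r = 0.980) and Ckap2l, a mitotic spindle gene (r = 0.977). Fancb averaged 3.36 ± 0.864 CPM in NDEA livers with 0 counts in control livers, and 18.3 ± 5.31 CPM in NDEA marrows and 17.6 ± 2.28 CPM in control marrows (SD, n = 4 each). Foxm1 was most like Sfxn3 (r = 0.968), Apcdd1 (r = 0.962) and Rfc4, a subunit of the clamp loader of replication (r = 0.948). Ccnd1 was most like Dap (r = 0.973), Clu, the gene of clusterin (r = 0.970), and Entpd5 (r = 0.967). Myc had no gene as close, with Gnpda1 (r = 0.786), Cdkl2 (r = 0.761) and Mad2l1, a spindle checkpoint gene (r = 0.741), at the top.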

How the data were processed

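The authors deposited raw counts of reads per gene for 16 libraries. The authors ran STAR and DESeq2, per the submitters' processing notes, which name no version (counting tool and genome build: not given in the sources used here). The deposited table was damaged: 15591 of 32635 lines were each wrapped into 1 quoted cell and 12 records were broken, so its values were recorded as other than plain counts and rejoined into 32623 gene records; in all 16313 records with group totals these equalled the sums of the counts. Because of that record, limma's voom method was the test. The filter asked for 15 counts over all libraries, and for 4 libraries (or as many as the smallest group held, where libraries were left out) at a CPM worth 10 counts at median depth. Scaling used trimmed means of M values (trims 0.3 and 0.05). Each tissue was fitted alone, the tissue difference over all libraries, with Benjamini-Hochberg adjustment over all genes tested and a call at an adjusted p under 0.05; R 4.3.3 and limma 3.58.1 were used, with the fits checked on simulated data. Members and lists were chosen with earlier results of these data known. The text names all members, 11 further genes whatever their values, up to 3 rises and 2 falls per list in liver whose log2 CPM averaged 2 or more and whose groups did not overlap, and the 3 genes most like each of 4 members. P-values measure the spread between libraries, and floors cover counting error only, as the labels name no molecular identifiers.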

Additional observations from a re-analysis of the deposited data

Results flagged for a closer look

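Single libraries stood apart in 6 of the 33 groups of 4 in which a member's level varied. The measure was the gap to the nearest other library over the group's range. Chance gives about 1 such group in 20 only for normally distributed values, and low counts are skewed. The 6 groups are therefore a list of libraries to look at, and no excess over chance is read from them. Mybl2 stood at 73.7 CPM in control marrow 3, the highest of its group. E2f8 stood at 20.5 CPM in control marrow 1, from 49 counts. In NDEA marrow 4, Ccne2 was the lowest of its group at 12.3 CPM and Myc the highest at 20.8 CPM. That library had 9101 genes detected, the fewest in marrow, where the most was 11699. Mitochondrial transcripts took 15.8% of its counts, the highest share in marrow. They took 13.0% in control marrow 3 and 6.41% in control marrow 1, which had the fewest counts in marrow, 2162182. The part of these differences in the levels was not tested. E2f7 stood at 1.55 CPM in NDEA liver 3 and at 2.18 CPM in NDEA marrow 2, with 0 counts in the other libraries of each group. A group of that form always gives the largest possible gap, however few the counts, here 11 and 13.

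For 8 named genes outside the members, the NDEA effect in liver minus that in marrow had a limma adjusted p under 0.05 in the fit of all libraries. They were named with their liver values known, and that liver effect is part of the difference, so these values are a description and show no tissue difference by a test. On the log2 scale, with the adjusted p in brackets, they were Mybl1 at 9.02 (0.0118), Cenpf at 5.42 (0.00847), Top2a at 4.72 (0.00499), Ccnb1 at 4.67 (0.00929), Cdkn1a at 4.04 (0.0165), Mki67 at 3.49 (0.00202), Tk1 at 1.99 (0.017) and Lig1 at 1.63 (0.0191). Mybl1 had 0 counts in all 4 NDEA marrows, so its fitted value depends on the prior count. Mybl2, chosen for its liver response, stood at 7.14, a value that depends on the prior count too.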

How the results depend on the processing

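Over 17 alternatives in liver the log2 fold change was 5.19 to 7.17 for Mybl2 and 1.03 to 1.48 for Ccnd1, a description of genes chosen for that response. In marrow 0 members were called in any alternative. The number of called genes in liver, 639, was 154 with the mitochondrial share as a covariate and 439 to 600 without single libraries; with library totals alone 390 were higher and 239 lower, against 277 and 362, and all genes had a median log2 fold change of 0.12, against 0.01. In marrow, 0 became 2 with no filter, 69 with all 16 libraries in one fit, 1 with the mitochondrial share as a covariate and 0 to 318 without single libraries. For the tissue difference, 257 became 392 with that covariate, 88 with NDEA marrows 3 and 4 both left out and 102 to 509 without single libraries, lowest without control liver 4 and highest without control marrow 3; the cause of these shifts was not tested. NDEA and control libraries with the same replicate number in a tissue were little alike around their group means. Their correlations were -0.01 to 0.01 in liver and -0.01 to 0.06 in marrow. Whether a liver and a marrow library came from the same rat is not given and was not tested. The fit of the tissue difference takes all libraries as independent. With a replicate block 792 genes were called in liver, 362 in marrow and 261 for the tissue difference. In marrow 4 genes of the lists around the regulators were then higher and 6 lower, where 166 and 196 of all 9239 tested genes were. In liver E2f3 and Ccnd2 then turned to -0.11 and 0.00957.

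The G1/S targets that rose in liver were 7 of 24 tested with limma-trend and 6 of 31 with no filter, against 3 of 24. They were 5 of 17 with the filter at 5 CPM and 5 of 29 with all 16 libraries in one fit. With the mitochondrial share as a covariate they were 2 of 24. Of all tested genes, 362 of 9668, 374 of 14299, 292 of 7879, 286 of 11261 and 59 of 9668 rose in these settings, in the same order. Uncalled marrow estimates of members turned sign with quality weights (Mybl2 0.032, E2f8 0.36, Ccnd1 0.033), with the mitochondrial share (E2f8 1.03), and with NDEA marrows 3 and 4 both left out (E2f8 0.74, Ccne2 0.17). Uncalled liver estimates turned with the mitochondrial share for E2f3 (-0.21) and Cdkn1b (-0.49). For E2f2 the uncalled liver estimate, -0.63, ran from -1.31 to 1.11 over the 16 alternatives in which it was tested. Without single libraries, marrow estimates ran from -0.092 to 0.083 for Mybl2, -0.49 to 0.19 for Ccnd1, -1.24 to 0.91 for E2f8 and -0.64 to 0.18 for Ccne2, and liver estimates from -0.24 to 0.65 for E2f3, -0.089 to 0.21 for E2f4, -1.78 to 1.17 for Ccnd2, -0.53 to 1.56 for Rbl1, -0.38 to 0.00703 for Rbl2 and -1.31 to 0.43 for E2f2; tissue differences ran from -1.14 to 0.56 for E2f2 and -1.11 to 0.88 for Foxm1. Of named calls in liver, those of Rrm1 and Nme1 held in 7 and 8 of 17 alternatives, Ccnb1 in 10, Cenpf in 13, Top2a, Mki67 and Hspd1 in 16, and Cdkn1a, Tk1 and Lig1 in 17; Mybl1 passed in 7. For the tissue difference, Mki67, Top2a and Ccnb1 had an adjusted p under 0.05 in all 25 alternatives, Tk1, Cenpf and Mybl1 in 24, Cdkn1a in 22 (up to 0.0784) and Lig1 in 21 (up to 0.0685). Single libraries took it over 0.05 for Tk1 and Cenpf (control liver 4), Lig1 (control liver 1 or 4) and Cdkn1a (control marrow 1 or 2). At the depth of liver, Foxm1, E2f7, E2f8 and Ccne1 were too low to test.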
